A study of Homo sapiens with 6 samples.

Results

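The SNAG-domain repressors SNAI1, SNAI2, SNAI3, GFI1, GFI1B, INSM1, INSM2, SCRT1 and SCRT2, together with the basic helix-loop-helix factor TWIST1, were examined in HCT116 cells with and without LSD1. HCT116 is an established human colorectal carcinoma cell line. Members were the genes of the count table whose Ensembl identifier maps to one of these 10 symbols, and all 10 of them were found among 60240 listed genes. RNA-seq libraries of polyA RNA were compared between 3 libraries labelled wild-type (WT) and 3 LSD1 KO libraries, from cells in which exon 1 of LSD1 (KDM1A) had been cut with CRISPR/Cas9. Both groups were HCT116 and no drug or time course entered the comparison. Edited cells were selected with puromycin and expanded as clones. The labels do not say whether the 3 LSD1 KO libraries come from 1 clone or from separate cultures, so p-values measure the spread between these libraries, which may be technical.

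LSD1 is a demethylase that removes methyl groups from lysine 4 of histone H3 and works in the CoREST complex with the deacetylases HDAC1 and HDAC2. It has no sequence-specific DNA binding of its own and is brought to genes by transcription factors. The SNAG domain is a short peptide at the very amino terminus of these zinc finger proteins that resembles the histone H3 tail and fits into the catalytic pocket of LSD1. Snail-family proteins use it to silence epithelial genes at E-box sites during epithelial-mesenchymal transition (EMT), GFI1 and GFI1B use it in blood cell development, INSM1 in neuroendocrine cells and SCRT1 and SCRT2 in neurons. TWIST1 is also an inducer of EMT but has no SNAG domain, and binds E-boxes as a dimer with E proteins such as TCF3.

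The SNAG domain is encoded by the first codons of each gene, and these bases are shown because they set the members apart from TWIST1. The first 9 codons of the canonical coding sequences (GENCODE, 27 bases, 5′ to 3′ from the start codon) are given with capitals at the 13 positions where all 9 SNAG members carry the same base. The sequences of SNAI2 and SCRT1 entered this comparison but are not printed.
SNAI1: ATGCCgcGctctTTcCTcGTcAggaag
SNAI3: ATGCCgcGctccTTcCTgGTgAaaacg
GFI1: ATGCCgcGctcaTTtCTcGTcAaaagc
GFI1B: ATGCCacGctccTTcCTgGTgAagagc
INSM1: ATGCCccGcggcTTcCTgGTgAagcgc
INSM2: ATGCCaaGgggaTTcCTgGTgAagcga
SCRT2: ATGCCgcGctccTTcCTgGTaAagaag
TWIST1: ATGatgcaggacgTgtccagctcgcca
OVOL1: ATGCCccGcgcgTTcCTgGTgAagaag
OVOL2: ATGCCcaaagtcTTcCTgGTgAagagg
The other 8 SNAG members matched SNAI1 at 15 to 24 of the 27 bases, whereas TWIST1 matched it at 9 and carried the shared base at 4 of the 13 positions. OVOL1 and OVOL2, SNAG-domain zinc finger factors outside the 10 genes, carried the shared base at 13 and 12 of them. The letters ATGCCNNGNNNNTTNCTNGTNA, read on the coding strand from the start codon, opened 12 of 19656 canonical coding sequences (0.0611%). These were the 9 SNAG members, OVOL1, OVOL3 and ENSG00000270299, a readthrough gene that shares exons with SCRT2 on the same strand and had 0 counts in every library. The letters were taken from the bases shared by the 9 SNAG members, so those matches were fixed in advance and the share is not a test.

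The members lie on 7 chromosomes in GRCh38 (RefSeq coordinates). SNAI1 (ENSG00000124216) is at chr20:49982980-49988886 on the plus strand, SNAI2 (ENSG00000019549) at chr8:48917598-48921429 on the minus strand, and SNAI3 (ENSG00000185669) at chr16:88677688-88686507 on the minus strand. GFI1 (ENSG00000162676) is at chr1:92473043-92486925 on the minus strand and GFI1B (ENSG00000165702) at chr9:132945531-132993434 on the plus strand. INSM1 (ENSG00000173404) at chr20:20368104-20370949 and INSM2 (ENSG00000168348) at chr14:35534164-35537054 are genes of 1 exon on the plus strand. SCRT1 (ENSG00000261678) is at chr8:144330565-144336482, SCRT2 (ENSG00000215397) at chr20:661596-675802 and TWIST1 (ENSG00000122691) at chr7:19113047-19117636, each on the minus strand with 2 exons in the canonical transcript.

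The libraries held between 25379279 and 29186963 counts, and the floor of 3 counts corresponded to 0.0994 to 0.114 CPM (counts per 1e+06 counts, scaled with TMM factors). KDM1A, the edited gene, was measured first and fell from 223.1 ± 8.78 CPM in WT to 28.4 ± 1.30 CPM in LSD1 KO cells (SD, n = 3 each; log2 fold change -2.97, q value 0.000451 from edgeR). Without a block for the replicate number, KDM1A was the 1 gene of 17672 tested to pass a q value of 0.1. Same-numbered WT and LSD1 KO libraries deviated together from their group means, so a second model with the replicate number as a block is given where it changes a call. First principal component scores were 50.5 (WT) and 58.0 (LSD1 KO) for the libraries numbered 2. They were -51.1 and -38.3 for those numbered 1, at the other end, and -6.91 and -12.2 for those numbered 3, in between. Log2 fold changes and list medians that moved by over 1.5 times or changed sign without the pair numbered 2 are also given without it. These values are from edgeR without a block unless stated. The summed level of 6 epithelial markers was 2044 to 3819 CPM in WT and 2420 to 3160 CPM in LSD1 KO libraries. Of 5 fibroblast markers, COL1A2, DCN and LUM were at the count floor, and the sum of the 5 was 20.5 to 24.2 CPM in WT and 30.3 to 34.4 CPM in LSD1 KO libraries. Nearly all of this was COL1A1, at 20.4 to 23.9 CPM in WT and 30.1 to 34.0 CPM in LSD1 KO libraries. Of 5 leukocyte markers, PTPRC and CD3E were at the floor, and the sum of the 5 was 16.1 to 19.7 CPM in WT and 22.5 to 32.7 CPM in LSD1 KO libraries. Nearly all of this was CD68, at 16.1 to 19.6 CPM in WT and 22.1 to 32.6 CPM in LSD1 KO libraries. The sum of 3 endothelial markers was 0.530 to 1.09 CPM and 0.966 to 2.04 CPM, with CDH5 at the floor. The part of these shifts in the results below was not tested.

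HCT116 cells carried transcripts of 3 SNAG members at a clear level in both genotypes, and the neural and neuroendocrine members were at or near 0. Levels were compared between genes as CPM per kb of canonical transcript, over the 6 libraries. SNAI1, the prototype Snail repressor, was the highest at a mean of 8.45 CPM per kb (6.43 to 11.1), above every library of the next gene, SNAI3, at 2.76 (1.66 to 3.90). The level of GFI1 was 2.38 CPM per kb (1.87 to 2.74), within the range of SNAI3, and both lay above TWIST1 at 0.768 (0.0878 to 1.44) in every library. SNAI2, also known as Slug, was at 0.409 CPM per kb (0.0174 to 1.66) and its range overlapped that of TWIST1. The level of GFI1B was 0.0608 CPM per kb (0 to 0.105) and that of SCRT1 0.0295 (0.00833 to 0.0761), and these overlapped each other.

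**Figure D1:**
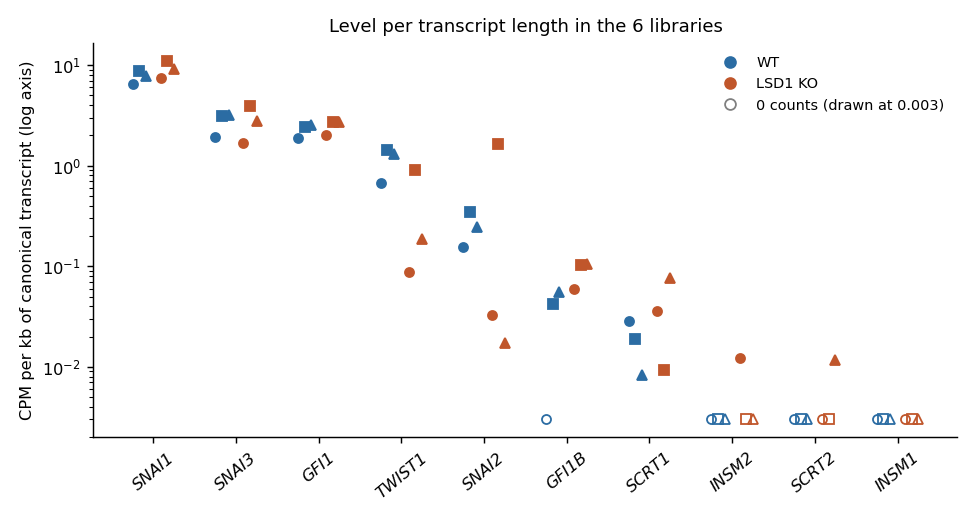
Level of each member in CPM per kb of canonical transcript (log axis) in the 3 WT and 3 LSD1 KO libraries, with marker shape giving the replicate number and open symbols, drawn at 0.003, giving libraries with 0 counts. SNAI1 lies at 6.43 to 11.1, SNAI3 and GFI1 overlap below it, and INSM1, INSM2 and SCRT2 are almost all open symbols.

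INSM1, INSM2 and SCRT2 were at the count floor, with at most 3 counts in every library. INSM1 had 0 counts in all 6 libraries, which allows up to 0.0994 to 0.114 CPM per library. INSM2 had 1 count, in LSD1 KO replicate 1, and SCRT2 had 1 count, in LSD1 KO replicate 3. A difference between WT and LSD1 KO cells was not detectable for these genes at this depth, and no fold is given. SCRT1 and GFI1B stayed at or under 10 counts in every library, which brings the members at this level to 5. For SCRT1, WT replicates 1, 2 and 3 held 3, 2 and 1 counts, and LSD1 KO replicates 1, 2 and 3 held 4, 1 and 8. Its totals of 6 and 13 counts gave a depth-adjusted ratio of 2.21 (95% exact counting interval 0.783 to 7.08) and the groups overlapped (p = 0.4, two-sided exact permutation test of CPM).

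GFI1B, the erythroid and megakaryocytic paralog of GFI1, had 0, 2 and 3 counts (WT) against 3, 5 and 5 (LSD1 KO). After scaling these were 0, 0.0757 and 0.0994 CPM against 0.107, 0.184 and 0.189 CPM, so that the LSD1 KO libraries lay above the WT ones although the highest WT and the lowest LSD1 KO library each held 3 counts. GFI1B was the 1 member with every LSD1 KO library above every WT library. Of the 17672 genes that passed the count filter 4.23% had this pattern, with 0 of the 5 members among them. That share does not cover GFI1B, and the share among genes with so few counts was not taken. The totals of 5 and 13 counts gave a ratio of 2.65 (95% exact counting interval 0.886 to 9.49), and the exact permutation p was 0.1, the smallest that 3 against 3 libraries can give. GFI1B did not pass the count filter and was not called by edgeR without a filter (log2 fold change 1.37, q value 0.973).

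Of the 10 members, 5 passed the count filter, and 0 had a q value under 0.1 in edgeR without the block, where 0.00566% of all genes were called. None of them had an unadjusted p under 0.05 in that model, beside 3.12% of all genes. With the replicate block edgeR also called 0 of the 5, against 1.60% of all genes, and 1 member, TWIST1, had an unadjusted p under 0.05, beside 13.4% of all genes. DESeq2 without the block called 0 members (0.370% of all genes), with 1 member and 1.96% of all genes at an unadjusted p under 0.05. DESeq2 with the block called 1 member, TWIST1, beside 3.96% of all genes. Genes called as lower in LSD1 KO cells made up 1.62% of all genes there. The median log2 fold change of the 5 members was 0.13, beside 0.00082 over all genes tested, and 4 of the 5 were positive. Without pair 2 the median was -0.071 over the 4 members then tested, of which 2 were positive.

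TWIST1 was the member with the lowest LSD1 KO level relative to WT. Its counts were 29, 62 and 65 in WT replicates 1, 2 and 3 and 4, 40 and 8 in LSD1 KO replicates 1, 2 and 3. This was 1.10, 2.35 and 2.15 CPM in WT and 0.143, 1.47 and 0.303 CPM in LSD1 KO cells, or 1.87 ± 0.674 against 0.640 ± 0.726 CPM (SD, n = 3 each), a ratio of 0.343. The groups overlapped through a single pair of libraries, since LSD1 KO replicate 2 lay above WT replicate 1 (p = 0.2, two-sided exact permutation test). In bulk RNA, fewer cells with the transcript and less RNA per cell cannot be told apart.

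TWIST1 was lower in the LSD1 KO library of each same-numbered pair. The ratio of CPM was 0.131 in pair 1 (95% exact counting interval 0.0334 to 0.372), 0.628 in pair 2 (0.411 to 0.949) and 0.141 in pair 3 (0.0583 to 0.294). All 3 intervals lay below 1, and the interval of pair 2 lay above that of pair 3 and that of pair 1. Intervals and floors cover counting error only.

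The log2 fold change of TWIST1 was -1.54 without the block (standard error 0.75, 95% interval -3.26 to 0.18, q value 0.999 from edgeR). It was -1.88 with the replicate block (standard error 0.51, 95% interval -3.04 to -0.72, q value 0.170 from edgeR) and missed the threshold there too. DESeq2 with the block gave -2.05 (standard error 0.66, q value 0.0624), past the threshold. After pair 2 was left out, edgeR with the block gave -2.87 (standard error 0.56, q value 0.00261). That setting called 5.85% of all genes, and genes called as lower made up 2.79% of all genes. Without pair 2 and without the block the value was again -2.87, with a q value of 0.446 from edgeR. With pair 1 or pair 3 left out instead, edgeR with the block gave -1.56 (q value 0.196) and -1.47 (q value 0.507), and TWIST1 was not called. The direction was the same in all 17 alternatives that gave a value (-3.07 to -1.06, q values 0.00261 to 1.00), and 2 of them called the gene.

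**Figure D2:**
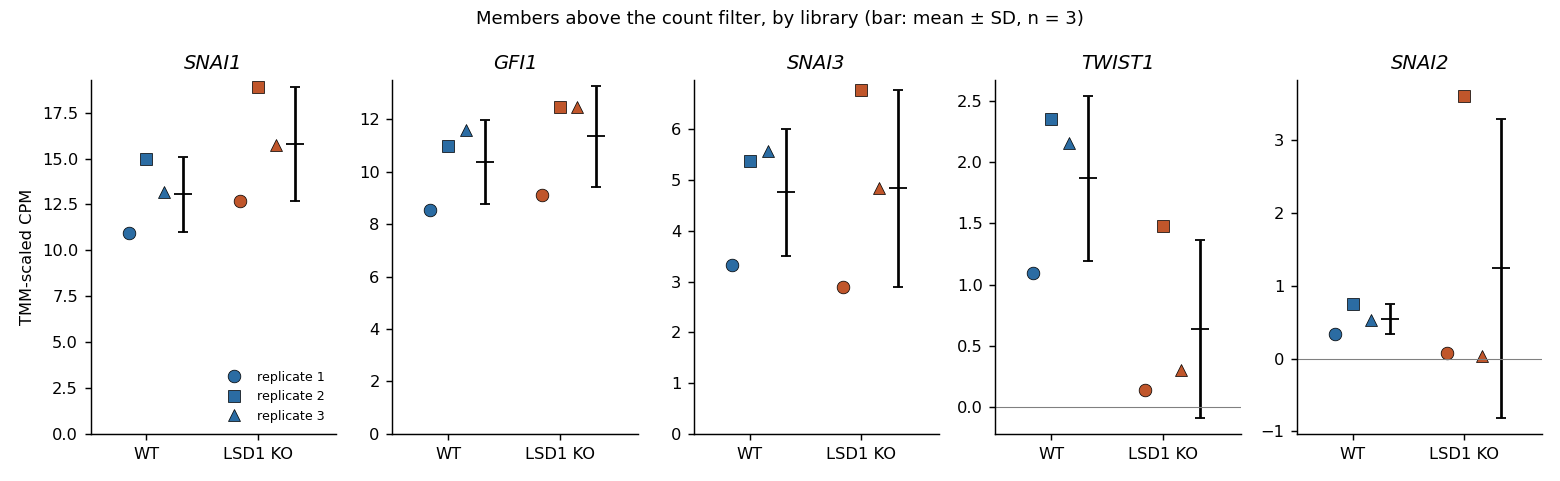
TMM-scaled CPM of the 5 members that passed the count filter in each WT and LSD1 KO library, with marker shape for the replicate number and a bar for the mean ± SD (n = 3). In the TWIST1 panel LSD1 KO replicates 1 and 3 lie at 0.143 and 0.303 CPM, and in the SNAI2 panel LSD1 KO replicate 2 lies at 3.61 CPM, above every other library.

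SNAI2 was decided by 1 library. The counts were 9, 20 and 16 in WT and 2, 98 and 1 in LSD1 KO replicates 1, 2 and 3, or 0.340, 0.757 and 0.530 CPM against 0.0715, 3.61 and 0.0379 CPM. LSD1 KO replicates 1 and 3 were the lowest of the 6 libraries and LSD1 KO replicate 2 the highest, at 4.77-fold the next one, WT replicate 2. The means were 0.542 ± 0.209 CPM in WT and 1.24 ± 2.05 CPM in LSD1 KO cells (SD, n = 3 each; p = 1, two-sided exact permutation test).

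The pair ratios of SNAI2 were 0.210 (95% exact counting interval 0.0221 to 1.02), 4.77 (2.93 to 8.15) and 0.0714 (0.00170 to 0.460) in pairs 1, 2 and 3. Pair 3 lay below 1 and pair 2 above it, with intervals that did not meet. The log2 fold change was 1.19 without the block (standard error 1.27, 95% interval -1.71 to 4.09, q value 0.999 from edgeR) and -0.10 with it (q value 0.978). Without LSD1 KO replicate 2 it was -3.22 (q value 0.689 from edgeR), so that the direction turned on that library. A rule that was not planned in advance picked genes in which 1 library, with more than 10 counts, was at least 4-fold above every other. For LSD1 KO replicate 2, SNAI2 was 1 of 6 such genes (0.034% of those tested). The other 5 were C15orf48, CEND1, FAM50B, LURAP1L and SPP1, listed after their values were seen. By the same rule LSD1 KO replicate 1 had 1 such gene and each of the other 4 libraries had 0. The 4-fold cut lies under the 4.77-fold of SNAI2 itself, so these shares describe the pattern and do not test it.

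**Figure D3:**
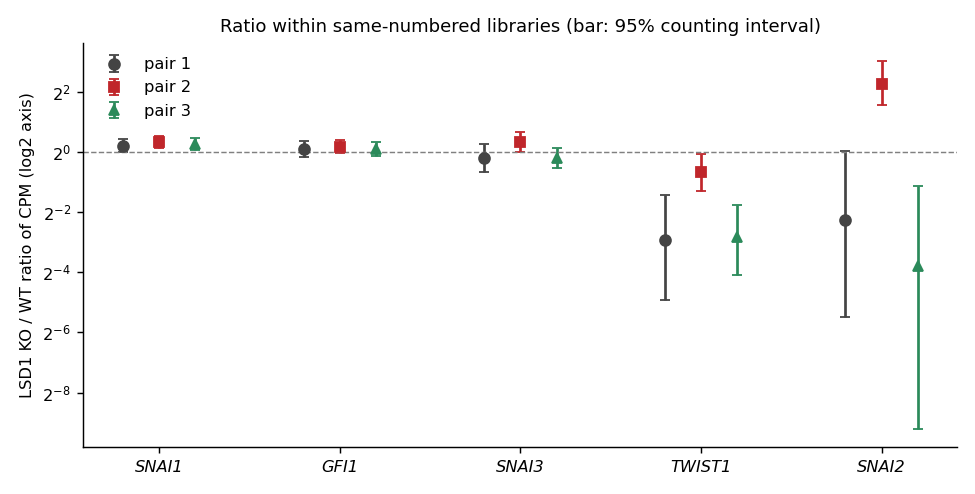
Ratio of LSD1 KO to WT CPM within each same-numbered pair of libraries (log2 axis), with 95% exact counting intervals and a dashed line at 1. The 3 TWIST1 ratios (0.131, 0.628 and 0.141) lie below 1, those of SNAI2 (0.210, 4.77 and 0.0714) lie on both sides, and those of SNAI1 and GFI1 lie between 1.07 and 1.26.

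SNAI1 was slightly higher in the LSD1 KO library of every pair and passed no test. It had 290, 396 and 398 counts (WT) against 355, 513 and 416 (LSD1 KO). This gave 11.0, 15.0 and 13.2 CPM in WT and 12.7, 18.9 and 15.7 CPM in LSD1 KO cells, with overlapping groups and means of 13.04 ± 2.02 and 15.8 ± 3.10 CPM (SD, n = 3 each; p = 0.3, two-sided exact permutation test). The pair ratios were 1.16 (95% exact counting interval 0.989 to 1.36), 1.26 (1.10 to 1.44) and 1.19 (1.04 to 1.37), and the intervals of pairs 2 and 3 lay above 1. The log2 fold change was 0.27 without the block (standard error 0.22, 95% interval -0.22 to 0.77, q value 0.999 from edgeR) and 0.27 with it (standard error 0.12, 95% interval -0.0090 to 0.55, q value 0.389).

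SNAI3, the least studied Snail paralog, had 88, 142 and 168 counts (WT) against 81, 184 and 128 (LSD1 KO). The levels were 3.32, 5.38 and 5.57 CPM in WT and 2.90, 6.78 and 4.85 CPM in LSD1 KO cells, and the highest and the lowest library both belonged to LSD1 KO. The means were 4.76 ± 1.24 and 4.84 ± 1.94 CPM (SD, n = 3 each; p = 1, two-sided exact permutation test). The pair ratios were 0.871 (95% exact counting interval 0.636 to 1.19), 1.26 (1.01 to 1.58) and 0.871 (0.686 to 1.10). The log2 fold change was 0.025 (standard error 0.37, 95% interval -0.81 to 0.86, q value 0.999 from edgeR), and it was negative in 6 of 18 alternatives, among them the replicate block at -0.014 and the fit without pair 2 at -0.22. SNAI3 shares exons with SNAI3-AS1 on the opposite strand, which had 56, 67 and 56 counts (WT) against 50, 76 and 57 (LSD1 KO). The strand setting of the counting is not given in the sources used here, so reads of the pair cannot be told apart.

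GFI1, a transcriptional repressor that acts in blood and intestinal secretory cell development, had 226, 290 and 350 counts (WT) against 255, 338 and 329 (LSD1 KO). The levels were 8.54, 11.0 and 11.6 CPM in WT and 9.12, 12.5 and 12.5 CPM in LSD1 KO cells, and the groups overlapped, with means of 10.4 ± 1.62 and 11.3 ± 1.93 CPM (SD, n = 3 each; p = 0.5, two-sided exact permutation test). The pair ratios were 1.07 (95% exact counting interval 0.889 to 1.28), 1.13 (0.967 to 1.33) and 1.07 (0.921 to 1.25), and each interval held 1. The log2 fold change was 0.13 (standard error 0.22, 95% interval -0.38 to 0.64, q value 0.999 from edgeR), so a change within that interval was not detectable here. Without pair 2 it was 0.079.

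**Figure D4:**
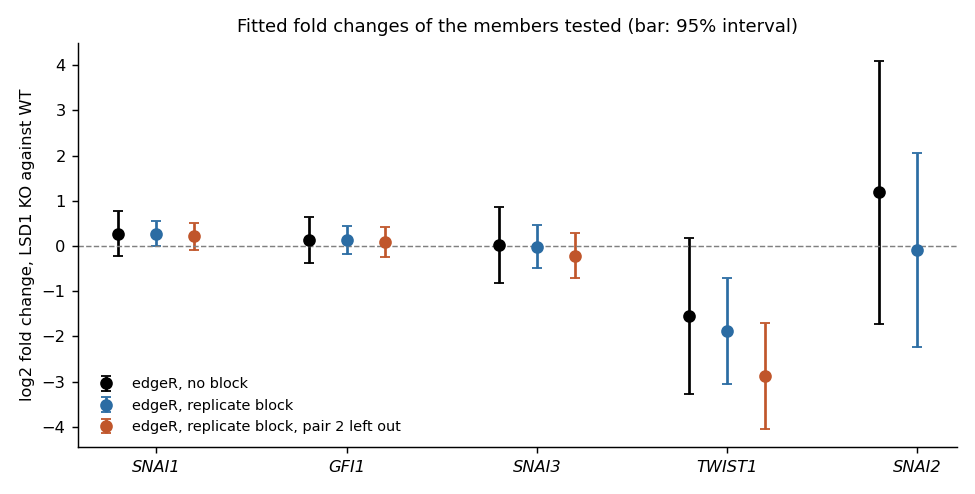
Log2 fold changes of the 5 members tested, LSD1 KO against WT, with 95% intervals, from edgeR without a block, with the replicate block and with the block after pair 2 was left out. SNAI2 has no value in the last setting because it did not pass the filter there. TWIST1 lies at -1.54, -1.88 and -2.87, and the intervals of SNAI1, SNAI3 and GFI1 without a block hold 0.

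Exons of other members are also shared with genes on the opposite strand. TSC1, opposite GFI1B, had 868 to 1503 counts per library and SLC52A2, opposite SCRT1, had 2525 to 4438, far above the few counts of GFI1B and SCRT1 themselves. ENSG00000232821, opposite TWIST1, had 1 count in WT replicate 1 and 0 in the other 5 libraries. ENSG00000288761, a lncRNA opposite SNAI2, has no line in the count table used here.

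The genes whose profile over the 6 libraries was nearest to each member were found by the root mean square difference of centred log2(CPM + 0.5) values, among genes with a mean within 2-fold of the member. For SNAI1 these were GAD1 (0.0413), HBEGF (0.0444) and UBE2E2 (0.0456), beside a median difference of 0.319 over 3988 genes. For GFI1 they were MOCS1 (0.0567), NINL (0.0595) and SLC45A3 (0.0644), beside 0.314 over 3424 genes. For SNAI3 they were EMX1 (0.0583), ISL2 (0.0746) and MC1R (0.0749), beside 0.465 over 2543 genes. TWIST1 had GFY (0.265), TTC22 (0.268) and TCN2 (0.299), beside 0.913 over 3042 genes. SNAI2 had FAM131B (0.233), FAM50B (0.340) and HEY1 (0.383), beside 1.08 over 3315 genes. The differences to the nearest genes were larger for TWIST1 and SNAI2, whose own centred profiles also varied more. The root mean square of the profile was 0.817 for TWIST1 and 0.979 for SNAI2. It was 0.242 for SNAI1, 0.202 for GFI1 and 0.385 for SNAI3. The differences were not scaled by this spread, so nearness is not compared between members.

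Genes that act with the members were counted from 8 lists holding 78 genes, of which 57 were tested. Without the block edgeR called 1 of them, KDM1A, beside 0.00566% of all genes. With the replicate block it called 4, namely KDM1A, OVOL2, EPCAM and ZEB1, beside 1.60% of all genes. Of the 12 genes of the LSD1-CoREST complex, the machinery the SNAG domain recruits, all were tested and KDM1A was the 1 called in either model. The median log2 fold change of this list was 0.044 (0.072 without pair 2), and the largest positive value among its members was 0.35 for PHF21A (q value 0.999 from edgeR), which was 0.098 without pair 2. Beside the counts at an unadjusted p under 0.05 given for the lists, the shares of all genes were 3.12% without and 13.4% with the block. Beside the other calls given for the lists, DESeq2 called 0.370% of all genes without and 3.96% with the block. EdgeR without a filter called 0.337% of all genes. Without pair 2 it called 5.85% with the block and 0.122% without it.

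The other SNAG factors of the list were OVOL1, OVOL2 and OVOL3, regulators of epithelial identity. OVOL2 had 18, 54 and 28 counts (WT) against 86, 172 and 83 (LSD1 KO), and rose with the replicate block (log2 fold change 1.83, q value 0.0216 from edgeR). Without the block the fold was 1.78, every LSD1 KO library lay above every WT library, and the call depended on the tool and filter (q value 0.934 from edgeR, 0.0994 from edgeR without a filter, 0.0778 from DESeq2). OVOL1 had 146, 194 and 218 counts (WT) against 168, 202 and 230 (LSD1 KO), with overlapping levels of 6.69 ± 1.02 and 7.39 ± 1.35 CPM (SD, n = 3 each). OVOL3, under the filter, was read in LSD1 KO libraries alone, with 2, 2 and 4 counts against 0, 0 and 0.

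SNAI1 protein is short-lived and is tagged for degradation by GSK3B, BTRC and FBXL14, so transcript level need not track protein level. Of 10 genes of SNAI1 turnover and modification, 9 were tested and 0 were called by edgeR without or with the block, with 0 and 3 at an unadjusted p under 0.05. The median log2 fold change was -0.0021. LOXL2, a lysyl oxidase that modifies SNAI1, had the largest value at 0.54 without the block (q value 0.999 from edgeR), and DESeq2 called it with the block (q value 0.0828) and 0 genes of the list without. Without pair 2 the value of LOXL2 was 0.19 and was not called (with the block 0.22, q value 0.397 from edgeR), and the median of the list was -0.19. CTDSP1, a phosphatase, had the lowest at -0.26 (q value 0.999 from edgeR), and PRKD1 had 0 counts.

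Among 12 epithelial genes that Snail factors are known to repress, all were tested and 0 were called by edgeR without the block. In edgeR 4 had an unadjusted p under 0.05 without the block, all of them lower in LSD1 KO cells, beside 3.12% of all genes. With the block 8 did, beside 13.4% of all genes. Of these the claudins CLDN3 and CLDN4, named after their values were seen, were higher and the others lower. DESeq2 called 1 without the block (EPCAM, q value 0.0516) and 1 with it (CLDN4, a tight junction protein named after its values were seen, higher in LSD1 KO cells, q value 0.0491). The median log2 fold change was -0.23, and 4 of the 12 values were positive. EPCAM, an epithelial adhesion protein, was the 1 called with the replicate block and fell from 204.0 ± 39.2 to 104.3 ± 28.3 CPM (SD, n = 3 each; log2 fold change -0.98, standard error 0.20, q value 0.0788 from edgeR). Without the block its q value was 0.668 from edgeR, and without pair 2 the fold was -0.66 with the block (q value 0.000263 from edgeR). In that last setting CLDN4 was called too, at 0.36 (q value 0.0511 from edgeR). EPCAM, KRT18 and CRB3, the last 2 named after their values were seen, had every LSD1 KO library below every WT library, beside 3.51% of all genes tested. CLDN1, a claudin like CLDN4, had the largest positive value at 0.70 (q value 0.999 from edgeR).

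The E-box CAGGTG was searched on both strands of RefSeq promoters (GRCh38.p14, 250 bases before to 50 bases after the start). Of 27305 gene symbols, 24.1% had at least 1 promoter that held it. Of the 8 epithelial genes with a promoter in that collection, 6 held it, with 5 copies each in CLDN7 and CRB3, and CLDN1 and CLDN4 held none. CDH1, EPCAM, KRT18 and VDR had no entry. The list was chosen as genes repressed by factors that bind E-boxes, so this share is not a test. Of the 4 members with an entry, SCRT2 held 1 copy and GFI1, GFI1B and INSM2 held 0. A match is a description of letters and not of binding.

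Of 12 mesenchymal genes of EMT, 5 passed the filter and all 5 had positive values, with a median log2 fold change of 0.89. In edgeR 1 of them had an unadjusted p under 0.05 without the block and 3 with it. Without pair 2 the median of these 5 was 0.20, and 4 were positive. ZEB1, a transcriptional repressor that induces EMT and has no SNAG domain, had 283, 218 and 300 counts (WT) against 501, 943 and 533 (LSD1 KO). ZEB1 was called with the replicate block (log2 fold change 1.28, standard error 0.23, q value 0.0561 from edgeR). Without the block the fold was 1.33, and it was called by DESeq2 (q value 0.00731) and by edgeR without a filter (q value 0.00734) but not by edgeR with the filter (q value 0.464). Without pair 2 the ZEB1 fold was 0.87 (q value 0.446 from edgeR, and 0.000462 with the block). VIM and SPARC are given after their values were seen. VIM, an intermediate filament of mesenchymal cells, had 905, 802 and 793 counts (WT) against 1128, 2651 and 793 (LSD1 KO), with its highest value in the same library as SNAI2, and its log2 fold change was 0.89 with and 0.20 without pair 2 (q value 0.999 and 1.00 from edgeR). SPARC, a matrix protein under the filter, had 3, 0 and 6 counts (WT) against 77, 2 and 108 (LSD1 KO), and was high in the 2 libraries where TWIST1 and SNAI2 were lowest. SPARC was called by DESeq2 with the block (log2 fold change 4.35, q value 1.4e-05) but not without it (q value 0.854), and by edgeR without a filter (q value 0.00562). After pair 2 was left out it passed the filter and edgeR called it with the block (q value 1.5e-06) and without it (q value 0.0810). It passed there only through LSD1 KO replicates 1 and 3, where it was high, once the low LSD1 KO replicate 2 was gone. These last 2 q values therefore describe the pattern and do not test it.

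Of 10 relatives and partners of TWIST1, 5 were tested and 0 were called by edgeR without or with the block, with 1 and 2 at an unadjusted p under 0.05. The median log2 fold change was -0.19. ID3, which binds E proteins and blocks their dimers, had the lowest value at -0.90 (q value 0.999 from edgeR), and DESeq2 called it with the block (q value 0.0049) and 0 genes of the list without. Without pair 2 the value of ID3 was -0.52 and the median of the list -0.086. With the block and without pair 2, edgeR called ID3 (-0.47, q value 0.0529). ID1, a protein of the same kind, had the highest at 0.24 (q value 0.999 from edgeR). TWIST2, the closest relative, had 3 counts in WT replicate 3 and 0 in the other 5 libraries.

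Of 10 genes that GFI1 and GFI1B are known to repress or bind, 8 were tested and 0 were called by edgeR without or with the block, with 1 at an unadjusted p under 0.05 in each. The median log2 fold change was 0.076, CDKN2B had the highest value at 0.50 and SOCS1 the lowest at -0.32 (q value 0.999 from edgeR for each). Without pair 2 CDKN2B was at -0.060 and the median of the list at -0.082. DESeq2 called 0 without the block and 1 with it, the cell cycle inhibitor CDKN1A (0.39 in edgeR, DESeq2 q value 0.0084), named after its values were seen. With the block and without pair 2, edgeR called CDKN1A (0.42, q value 0.00983) and MYC (0.57, q value 0.000539), the latter also named after its values were seen. The value of MYC without a block was 0.25 with and 0.54 without pair 2. Of 10 neuroendocrine genes of the INSM1 programme, 4 were at the count floor and 4 were tested, and edgeR called 0 of these without or with the block, with 0 at an unadjusted p under 0.05, and DESeq2 called 0 in either model. SCG2 had the highest value at 0.41 and PAX6 the lowest at -0.39 (q value 0.999 from edgeR for each).

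**Figure D5:**
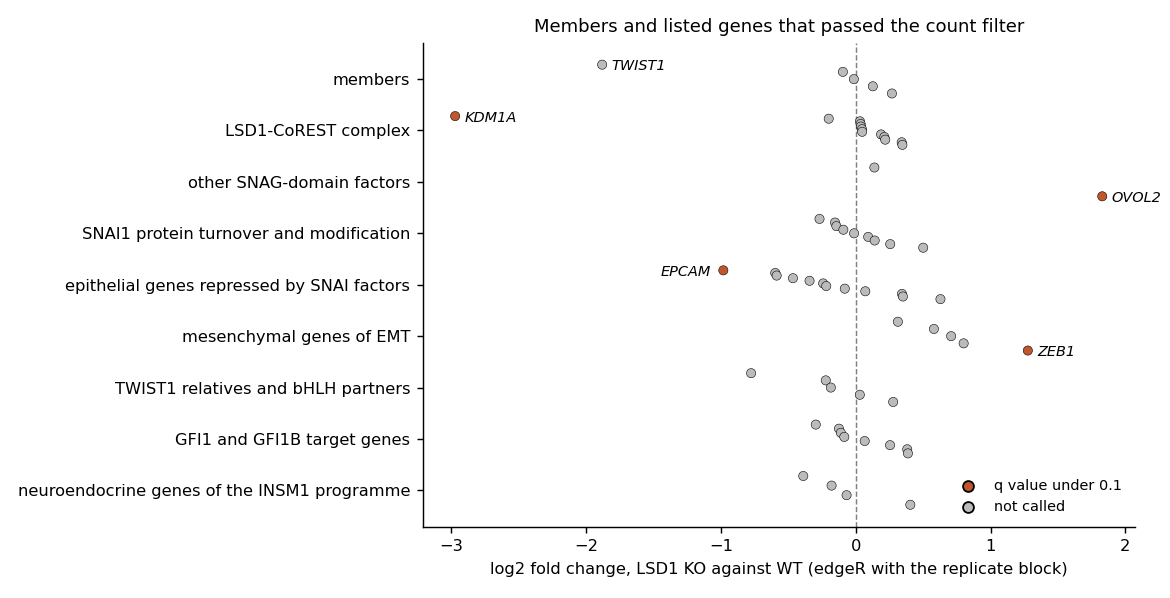
Log2 fold change, LSD1 KO against WT, from edgeR with the replicate block for the members and for the genes of the 8 lists that passed the count filter, 1 point per gene, coloured where the q value is under 0.1. TWIST1 lies at -1.88 without being called, and the 4 called genes are KDM1A, OVOL2 (1.83), EPCAM (-0.98) and ZEB1 (1.28).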

How the data were processed

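RNA-seq of 3 WT and 3 LSD1 KO HCT116 libraries was analysed. The authors trimmed the reads with Trimmomatic 0.39, quantified them with Salmon 1.4.0 on GRCh38 and deposited expected counts by gene, all whole numbers and without scaling for depth. The step from transcripts to genes, and whether strand was used, are not given in the sources used here.

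Genes were tested with edgeR 4.0.16 (R 4.3.3; filterByExpr, TMM factors, quasi-likelihood test, Benjamini-Hochberg q values over 17672 genes, threshold 0.1), without a block. The alternatives were DESeq2 1.42.0, other size factors and filters, the replicate block, and leaving out libraries or pairs. Deviations from the group means correlated at 0.553, 0.553 and 0.404 between same-numbered libraries and at -0.516 to 0.0454 between others (17672 genes, which are not independent), so the numbers were taken to pair the libraries, although the labels do not say what they mark.

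CPM per kb used canonical transcript lengths. Counting intervals are exact Clopper-Pearson at 95%. The fits were tested on simulated data. Members, lists and tests were chosen with earlier results of these data known. The text names every member, KDM1A, OVOL1 to OVOL3, listed genes with a q value under 0.1 without or with the block, the largest rise and fall of each list, genes sharing exons with a member, and the 3 genes nearest in profile. Symbols matched 58395 of the 60240 identifiers. Gene coordinates and promoters came from RefSeq (GRCh38.p14), and coding starts from GENCODE.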

Additional observations from a re-analysis of the deposited data

How the results depend on the processing

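The call of 0 members moved to 1, TWIST1, with DESeq2 and the replicate block (log2 fold change -2.05) and with the edgeR block after pair 2 was left out (-2.87). The cause was not tested. SNAI2 turned to -0.10 with the replicate block and ranged from -3.22 to 1.77 with single libraries left out, where LSD1 KO replicate 2 turned it, and its CPM difference ranged from -0.488 to 1.30. SNAI3 turned to -0.014 with the block, -0.021 with DESeq2 and the block, and -0.22 with pair 2 left out, with the block or without it. It ranged from -0.32 to 0.29 with single libraries left out, negative without WT replicate 1 or LSD1 KO replicate 2. The SNAI3 CPM difference was -0.0380 with plain library totals and ranged from -0.884 to 1.06 with single libraries left out. In edgeR with all libraries, the replicate block changed no member's call. SNAI1, GFI1 and TWIST1 kept their direction in 18, 18 and 17 alternatives. The members at the floor were 5 with a floor of 10 counts.

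The 1 gene called over the table became 114 without a filter, 95 with DESeq2, 593 with DESeq2 and the block and 282 with the replicate block. It became 428, 1055 and 198 with the block and pair 1, 2 or 3 left out, and 22 with pair 2 left out and no block, which was added after seeing the data. It was 1 to 26 with single libraries left out, the 26 without LSD1 KO replicate 2. The 1 listed gene called became 5, 4, 8 and 4 in the first 4 of these settings, then 8, 9, 5 and 2, and was 1 to 2 with single libraries left out. Other size factors, a stricter filter and a q value under 0.05 changed no call. Below 10 counts per library, the ratios of total counts of GFI1B and SCRT1 could not be told from counting error. The SCRT1 ratio was 1.26, 0.487 and 9.14 in pairs 1, 2 and 3. The interval of pair 3 (95% exact counting interval 1.23 to 406) lay above 1 and those of pairs 1 and 2 held 1.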
